A study of Mus musculus with 2 samples.

Results

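DNase I cuts mark open chromatin, and the sites described here are the DNase-seq peaks that lie inside clusters of chemosensory receptor genes in hippocampal tissue of young mice. Receptor genes were the 1488 protein-coding genes of GENCODE M21 whose symbols name an olfactory receptor (Olfr, 1135 genes), a vomeronasal receptor of type 1 (Vmn1r, 209 genes) or type 2 (Vmn2r, 122 genes), a trace amine-associated receptor (Taar, 15 genes) or a formyl peptide receptor (Fpr, 7 genes). A peak was taken if it lay within 20 kb of such a gene body and more than 1 kb from any transcription start site of another protein-coding gene. The rule also takes in receptor genes that stand alone, so a member need not lie in a cluster. By this rule 391 of 115072 peaks were taken in replicate 1 and 255 of 95711 in replicate 2. The study is 1 group of 2 biological replicates: male B6CASTF1/J mice, which are F1 hybrids between the C57BL/6 and CAST/EiJ strains, aged 14 days, with no second tissue, treatment or genotype. The labels call the tissue a layer of hippocampus without naming the layer, speak of 3 males, and give both replicates 1 donor identifier without saying which animals went into each, so the spread between replicates may be partly technical. Positions are on mm10 (GRCm38).

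Olfactory, vomeronasal and trace amine-associated receptors are G protein-coupled receptors by which sensory neurons of the nose detect odours, pheromones and amines, and formyl peptide receptors serve immune cells as well as vomeronasal neurons. Their genes stand in large tandem clusters, and in the olfactory epithelium each mature sensory neuron transcribes a single olfactory receptor allele while the other clusters are held in heterochromatin. In that tissue a set of enhancers known as Greek islands, bound by LHX2, EBF factors and the adaptor LDB1, gathers around the chosen gene, whereas the hippocampus is not known to use these receptors for smell.

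Some of the highest peaks between genes that were found in both replicates are shown first, because the letters show what lies in them. Sites are numbered by the mean of the authors' value over both replicates. Site 3 is chr13:21161261-21161500, 15394 bp from Olfr1368, on the + strand with the RefSeq tRNA-Phe gene in capitals. Sites 5 and 6 are the central 300 bases, chr13:21710081-21710380 near Olfr1359 and chr15:98181261-98181560 near Olfr288, on the + strand, with the bases that lay in a footprint of both replicates in capitals. A footprint is a short stretch protected from DNase I inside an open region.
site 3: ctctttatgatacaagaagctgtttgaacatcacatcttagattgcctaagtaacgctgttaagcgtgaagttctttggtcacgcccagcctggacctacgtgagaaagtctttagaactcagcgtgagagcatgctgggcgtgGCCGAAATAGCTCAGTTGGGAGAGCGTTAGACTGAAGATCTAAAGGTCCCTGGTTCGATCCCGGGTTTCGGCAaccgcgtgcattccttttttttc
site 5: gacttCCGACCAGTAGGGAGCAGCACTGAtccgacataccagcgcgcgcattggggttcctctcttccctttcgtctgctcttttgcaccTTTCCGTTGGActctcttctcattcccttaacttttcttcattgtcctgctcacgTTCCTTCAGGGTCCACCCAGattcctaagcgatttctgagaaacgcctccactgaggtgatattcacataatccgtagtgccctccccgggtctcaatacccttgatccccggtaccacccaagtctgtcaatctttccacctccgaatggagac
site 6: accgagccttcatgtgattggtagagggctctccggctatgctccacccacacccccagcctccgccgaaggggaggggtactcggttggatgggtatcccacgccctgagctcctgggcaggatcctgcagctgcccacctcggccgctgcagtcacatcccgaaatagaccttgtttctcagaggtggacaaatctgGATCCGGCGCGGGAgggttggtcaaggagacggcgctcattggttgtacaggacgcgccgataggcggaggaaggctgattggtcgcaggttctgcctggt

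The 4 highest peaks between genes that hold a match to the core of the CTCF motif follow on the - strand with the match in capitals. CTCF is the zinc finger protein that bounds chromatin loops, and the core searched for, on either strand, reads CCA, any 2 bases, AG, any 2 bases and GGC. They are chr14:51064801-51065080 (site 1, which also holds a tRNA-Pro gene in lower case), chr14:51063401-51063640 (site 4), chr19:12012221-12012520 (site 9, the central 300 bases, with a tRNA-Val gene) and chr17:37203721-37203880 (site 16). In all 4 the match touched a footprint in both replicates.
site 1: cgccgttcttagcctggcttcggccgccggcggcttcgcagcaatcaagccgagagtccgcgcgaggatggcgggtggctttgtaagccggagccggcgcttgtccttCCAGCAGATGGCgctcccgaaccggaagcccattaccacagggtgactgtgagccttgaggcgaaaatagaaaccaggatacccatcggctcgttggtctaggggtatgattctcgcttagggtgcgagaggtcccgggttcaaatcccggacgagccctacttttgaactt
site 4: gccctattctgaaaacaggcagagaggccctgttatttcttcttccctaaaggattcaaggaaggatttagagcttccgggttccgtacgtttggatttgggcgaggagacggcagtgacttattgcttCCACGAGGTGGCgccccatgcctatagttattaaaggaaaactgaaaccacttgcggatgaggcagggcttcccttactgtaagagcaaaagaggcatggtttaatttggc
site 9: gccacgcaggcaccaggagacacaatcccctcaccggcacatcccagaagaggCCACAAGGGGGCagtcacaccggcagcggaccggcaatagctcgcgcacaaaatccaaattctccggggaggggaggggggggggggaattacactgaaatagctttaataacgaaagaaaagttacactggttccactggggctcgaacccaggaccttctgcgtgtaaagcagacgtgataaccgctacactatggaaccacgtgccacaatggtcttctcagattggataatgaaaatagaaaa
site 16: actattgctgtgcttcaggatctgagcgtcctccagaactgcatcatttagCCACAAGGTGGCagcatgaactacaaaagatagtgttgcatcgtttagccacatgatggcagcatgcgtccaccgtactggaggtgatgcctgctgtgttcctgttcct

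The last sequence is the peak inside Fourni, 1 of the olfactory receptor enhancers curated in RefSeq. It is chr7:140186741-140186960 on the + strand near Olfr523, with the bases that lay in a footprint of both replicates in capitals. Sequences and tRNA positions are from RefSeq's GRCm38.p6.
Fourni enhancer peak: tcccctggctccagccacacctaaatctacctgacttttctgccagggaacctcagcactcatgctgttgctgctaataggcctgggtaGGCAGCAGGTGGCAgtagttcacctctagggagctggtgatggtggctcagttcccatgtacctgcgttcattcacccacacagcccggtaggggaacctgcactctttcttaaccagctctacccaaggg

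The tissue's own genes were open: all 6 neuron markers looked up (Tubb3, Syt1, Snap25, Camk2a, Gria2 and Neurod2) had a promoter peak in both replicates, against 64.3% of all protein-coding genes, while neither lymphocyte marker (Cd3e, Cd3d) had one in any. The liver gene Alb had a weak peak in both and Apoa1 none, and of 4 microglia markers only Csf1r had one in both. Of 6 olfactory neuron markers 4 (Omp, Gng13, Gnal and Adcy3) also had one in both, so these calls do not tell neuron types apart. A promoter here is 1000 bp either side of any annotated start site of the gene. The value given for a peak is the signal the authors deposited for it, whose scaling is not stated, so levels are compared within a library and SDs over the replicates may hold a library difference. The data are from bulk tissue, in which fewer open cells and less opening per cell cannot be told apart.

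Receptor clusters were sparse in open chromatin but not empty. Receptor territory, the bases where a member could lie, covered 43.7 Mb and held 8.95 peaks per Mb in replicate 1 and 5.83 in replicate 2. Distal peaks elsewhere, treated by the same rule, reached 33.8 and 26.8 peaks per Mb over 2511 Mb. Density in the territory was therefore 3.77 times lower in replicate 1 and 4.59 times lower in replicate 2. The stretches whose cut rate the authors list at a false discovery rate under 0.05 covered 0.275% and 0.163% of the territory against 1.60% and 1.33% of the genome. The genome share also counts bases within 1 kb of start sites, which the territory leaves out, so it is not a distal share. The reference repeats itself more here: 69.2% of sampled 36-base words of the territory occurred once, against 82.7% of the rest. Counted per position whose word occurred once, with all peaks kept, density was 3.16 and 3.84 times lower, a choice made after seeing the data. Peaks with at least 90% of words occurring once made up 77.0% and 74.5% of members, against 96.4% and 96.1% of other distal peaks.

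The difference in density followed distance from other genes. Within 20 kb of a protein-coding gene that is no receptor, but outside it, the territory held 31.8 and 20.9 peaks per Mb, 1.42 and 1.74 times fewer than the rest of the genome at the same distance. At 20 to 100 kb it held 9.55 and 7.34 peaks per Mb, 3.71 and 3.75 times fewer. Beyond 100 kb, where 59.9% of the territory lies, it held 4.24 and 2.52 peaks per Mb, 4.53 and 5.68 times fewer. Both replicates gave the lowest density in the parts of the territory remote from other genes. Inside the bodies of other genes the replicates differed: the territory held 1.13 times fewer peaks per Mb than the rest in replicate 1 and 2.09 times fewer in replicate 2, a bin that holds 15 replicate 1 members of a dense stretch on chromosome 17.

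**Figure D1:**
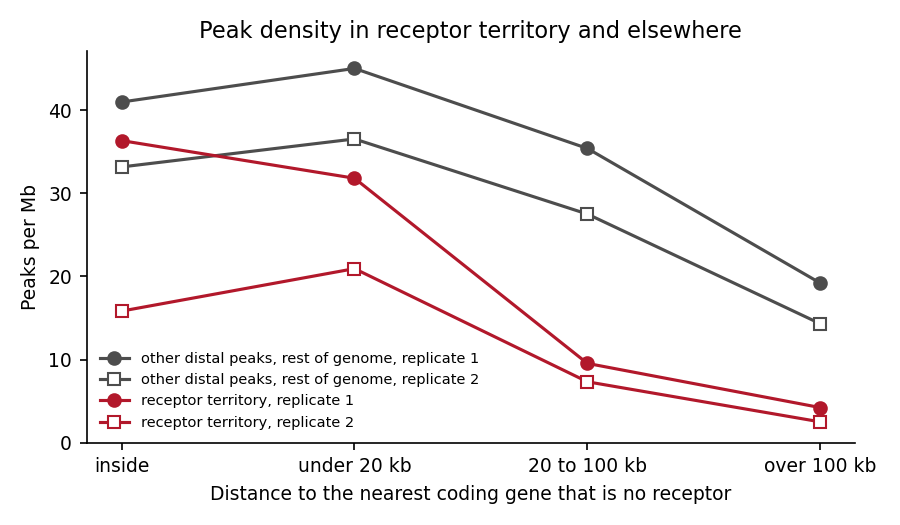
Peaks per Mb (y axis) by distance to the nearest protein-coding gene that is no receptor (x axis), for receptor territory and for the rest of the genome in each replicate. Beyond 100 kb the territory held 4.24 and 2.52 peaks per Mb against 19.2 and 14.3 elsewhere.

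A single stretch set replicate 1 apart. The locus of Olfr90 to Olfr126 on chromosome 17 had 36 members in replicate 1 and 4 in replicate 2, a difference of 32. In none of the other 346 loci did either replicate exceed the other by more than 4 members. Within chr17:37064521-37093521, which spans 29.0 kb from the end of Gabbr1, a GABA-B receptor subunit gene, to Olfr91, replicate 1 had 31 members and replicate 2 had no peak at all. The stretch was drawn around replicate 1 members that had no replicate 2 peak, so the lack of replicate 2 peaks over these 31 was fixed by that choice. None of the 31 held a listed stretch in replicate 2, 15 lay in Gabbr1, and their median value was 0.240. On the shorter list of replicate 1 were 23 of the 31, and 14 held a footprint. On average 97.6% of their 36-base words occurred once. Without the locus there were 355 and 251 members. The share of replicate 1 members found in both replicates was 54.6% without it and 50.6% with it, and the density in the territory was 4.08 and 4.57 times lower than elsewhere.

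**Figure D2:**
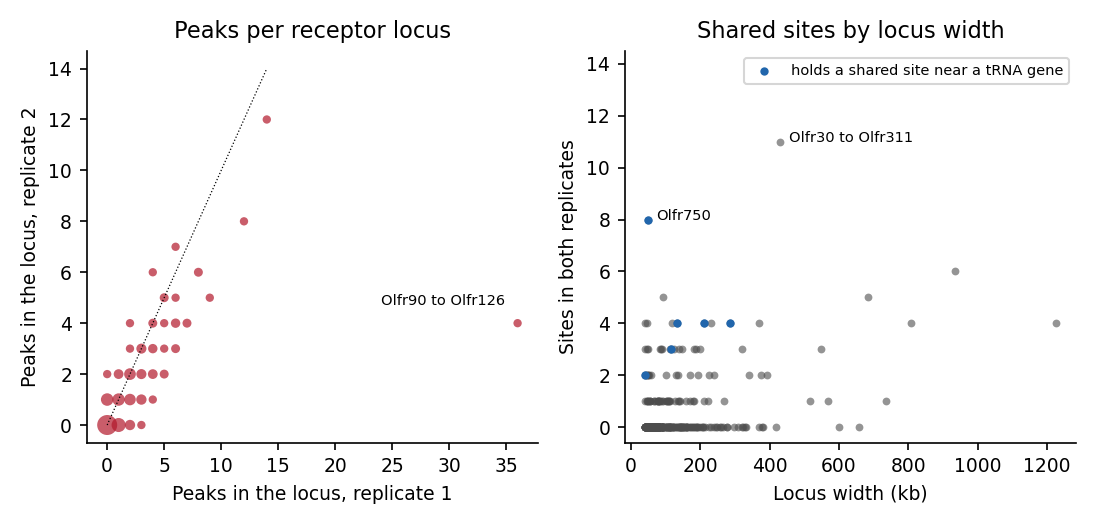
Left, peaks per receptor locus in replicate 1 (x axis) and replicate 2 (y axis), with larger points for more loci and equality dotted. Right, sites found in both replicates (y axis) by locus width in kb (x axis), in blue where a locus holds a shared site near a tRNA gene. The Olfr90 to Olfr126 locus stands apart with 36 against 4 peaks, and the Olfr30 to Olfr311 locus holds the most shared sites, 11.

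Members were weaker than other distal peaks at the median and at the maximum, but not at the 99th percentile. Their median value was 0.346 in replicate 1, with quartiles of 0.219 and 0.622, against 0.523 for other distal peaks. In replicate 2 it was 0.457, with quartiles of 0.249 and 0.799, against 0.628. The ratio of medians was 0.662 and 0.727. At or above the median of all peaks of their library stood 27.4% and 28.6% of members, against 41.9% and 40.0% of other distal peaks. Upper quartiles of other distal peaks were 0.820 and 0.986. At the 95th percentile members stood at 1.70 against 1.82 for other distal peaks in replicate 1 and at 2.82 against 2.25 in replicate 2. At the 99th percentile, which rests on few member peaks, members were higher in both replicates, 3.40 against 3.08 and 4.94 against 3.94. The maximum was 6.00 against 55.9 in replicate 1 and 8.73 against 83.8 in replicate 2. With sites near tRNA genes left out of the members only, the 95th percentile was 1.29 against 1.82 and 1.72 against 2.25. The 99th percentile was then 2.01 against 3.08 and 2.68 against 3.94. Members were 190 and 180 bp wide at the median, against 200 and 192 bp. Of members 15.1% and 17.6% were mostly repeat sequence, against 3.30% and 3.42% of other distal peaks. Of windows of the members' widths laid across the territory, 45.5% were mostly repeat sequence.

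**Figure D3:**
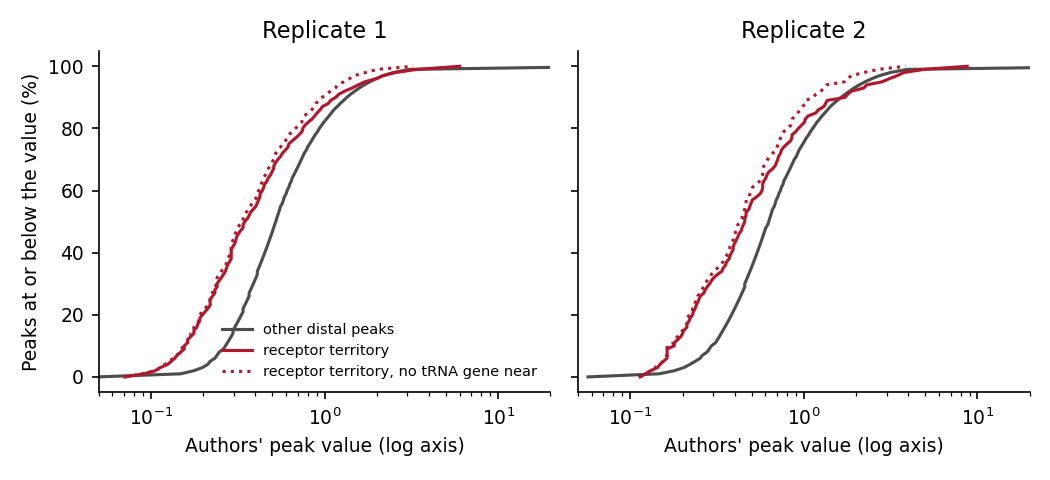
Share of peaks at or below a value (y axis, %) by the authors' peak value (x axis, log scale) for receptor territory, receptor territory away from tRNA genes and other distal peaks, with 1 panel per replicate. Medians of territory peaks are 0.346 against 0.523 and 0.457 against 0.628. Their 95th percentile is 1.70 against 1.82 and 2.82 against 2.25, and away from tRNA genes it is 1.29 and 1.72.

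Of the members, 198 of 391 in replicate 1 (50.6%, exact 95% binomial interval 45.6 to 55.7) and 199 of 255 in replicate 2 (78.0%, 72.5 to 83.0) overlapped a peak of the other replicate by at least 1 bp. Over all peaks these shares were 65.3% and 78.4%, and over other distal peaks 59.6% and 75.5%. The members found in 1 replicate alone were faint, with medians of 0.233 in replicate 1 and 0.179 in replicate 2, and few of them held a listed stretch in the other replicate (14 of 193 and 9 of 56). Across the 198 pairs the authors' values had a Spearman rho of 0.909, and across 50540 pairs of other distal peaks 0.901. All of these pairs come from the same 2 libraries. The authors' shorter list held 179 members of replicate 1 (45.8%) and 101 of replicate 2 (39.6%), against 51.7% and 52.6% of all peaks and 44.3% and 43.3% of other distal peaks. At least 1 footprint lay in 252 members of replicate 1 (64.5%) and 163 of replicate 2 (63.9%), against 75.2% and 74.5% of all peaks and 73.8% and 72.0% of other distal peaks.

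By place, 230 members of replicate 1 (58.8%) and 159 of replicate 2 (62.4%) lay between genes, 53 and 33 at a receptor promoter, 16 and 11 in a receptor exon and 22 and 15 in a receptor intron. A further 39 and 17 lay in the body of another protein-coding gene and 31 and 20 in that of a noncoding gene or pseudogene. Inside a receptor gene lay 39 of the 198 shared members, near the share of all members, 20.5% in replicate 1 and 21.6% in replicate 2. Of the 20 highest shared members 1 lay inside a receptor gene, and 13 of those 20 lay within 500 bp of a tRNA gene.

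The strongest sites in receptor territory stood at tRNA genes. Transfer RNA genes are transcribed by RNA polymerase III from promoter elements inside the gene, and none of them encodes a receptor. Of the 10 highest shared members 9 lay within 500 bp of a RefSeq tRNA gene, as did 13 of the highest 20, 15 of the highest 50 and 17 of all 198. Among all members these were 20 of 391 in replicate 1 (5.12%) and 17 of 255 in replicate 2 (6.67%), against 0.308% and 0.347% of all peaks. The 17 shared sites fall in 6 loci on chromosomes 13, 14 and 19, so they are not independent places. The locus of Olfr750, with 7 of them, has 1 receptor gene and touches 4 other coding genes, so it is no cluster. All 17 lay between genes and were on the shorter list in both replicates.

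Site 1, at a tRNA-Pro gene 1221 bp from Olfr750, had values of 5.42 in replicate 1 and 8.73 in replicate 2 (7.08 ± 2.34, SD, n = 2). Site 3, at a tRNA-Phe gene near Olfr1368, had 3.92 and 6.03. Both stood at percentile 97.0 or higher of their library, the lowest being site 3 in replicate 1. Sites 4 (chr14:51063401-51063640, 243 bp from a tRNA-Leu gene) and 5 (chr13:21710041-21710420, 160 bp from a tRNA-Gly gene) had means of 3.76 and 3.55. Sites 7 (chr19:12011581-12012040) and 9 (chr19:12012201-12012540), at tRNA-Arg and tRNA-Val genes near Olfr1423, had means of 3.28 and 2.84. Site 7 also spans a tRNA-Val gene at chr19:12011931-12012003. Sites 8 (chr14:51063701-51064040) and 10 (chr14:51088601-51088820), at tRNA-Leu and tRNA-Thr genes near Olfr750, had 3.22 and 2.83. In these 9 sites 78.9% to 100% of the 36-base words occurred once. Reads in the rest may have been placed or dropped by rules that the sources used here do not give.

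Most tRNA genes of the territory had a peak. Of the 15 within 20 kb of a receptor gene, 13 had a peak in both replicates, against 203 of 388 elsewhere (52.3%) and 53.6% of all 403. A single tRNA gene of the 15 lies within 1 kb of another gene's start site, and 12 of the other 14 had a peak in both. The exceptions were a tRNA-Lys gene near Olfr401 and a tRNA-Thr gene near Olfr750, with no peak in either. The median value of members near tRNA genes was 2.18 in replicate 1 against 3.12 in replicate 2, and that of distal peaks near tRNA genes elsewhere 1.54 and 1.99. The remaining members had medians of 0.339 and 0.428, so leaving the tRNA sites out, a choice made after seeing the data, moved the ratio to other distal peaks only to 0.649 and 0.682.

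**Figure D4:**
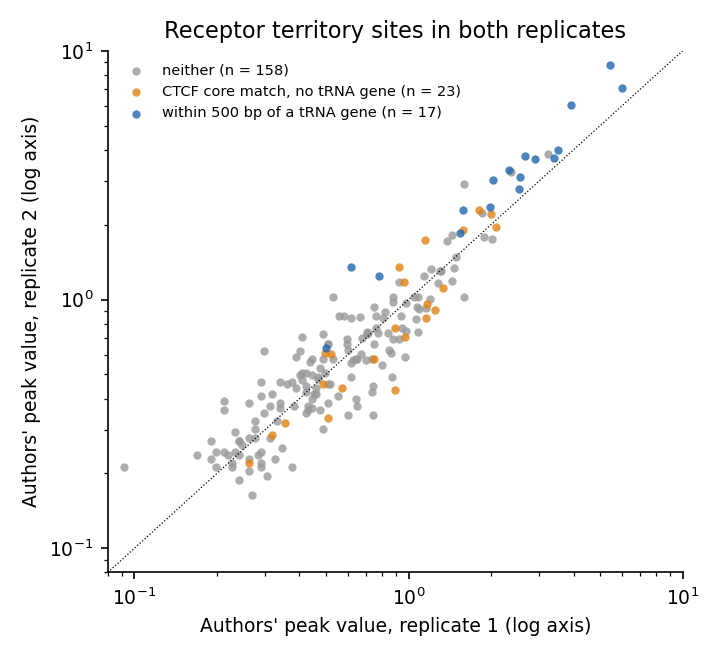
The authors' value in replicate 1 (x axis, log scale) and replicate 2 (y axis, log scale) for the 198 sites found in both, coloured by a tRNA gene within 500 bp (17), a CTCF core match without one (23) or neither (158), with equality dotted. The highest sites are those near tRNA genes, the site with the highest mean standing at 5.42 and 8.73.

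The highest site without a tRNA gene near, site 6 (chr15:98181181-98181640), lay 4373 bp from Olfr288, with 3.23 in replicate 1 and 3.85 in replicate 2. It holds neither a tRNA gene nor a CTCF core match, has 60.9% G and C, and had 7 and 3 footprints. Near it in rank, site 11 lay 13588 bp from Olfr545 on chromosome 7, with 2.36 and 3.26. By family the highest sites were lower outside Olfr. For Vmn1r it was chr1:182140501-182140700 near Vmn1r1, with 1.81 and 2.30. For Vmn2r it was chr3:64791001-64791220 in an intron of Vmn2r7, with 1.89 and 1.79, which is also the highest shared site over 100 kb from any other coding gene. For Fpr it was chr17:17909961-17910500 in an intron of Fpr3, with 1.44 and 1.81, and for Taar chr10:23979441-23979620 near Taar6, with 1.28 and 1.17. Of the 20 highest shared members 19 lay within 20 kb of a coding gene that is no receptor, against 86 of all 198, and 13 of those 20 are sites near tRNA genes.

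The families differed in density. Olfr territory held 11.5 and 7.32 members per Mb, Vmn1r territory 4.46 and 3.25 and Vmn2r territory 3.40 and 2.52. The small Taar cluster had 7 and 4 members in 0.229 Mb and the Fpr territory 4 and 3 in 0.299 Mb, too few to order. Medians were also higher for Olfr, at 0.375 and 0.489, than for Vmn1r, at 0.262 and 0.306, or Vmn2r, at 0.240 and 0.249. Vomeronasal families were lower than Olfr in both replicates by both measures, which was not tested.

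Shared members were unevenly spread over the loci. Receptor gene bodies with their 20 kb flanks merged into 347 loci, of which 150 hold 1 receptor gene. Among the 347, 188 had no member in either replicate and 89 had a shared one. The 10 loci with most shared members, chosen by that count, held 27.8% of them in 11.6% of locus width. The loci with no shared member made up 62.3% of all locus width and held 822 receptor genes. Olfr30 to Olfr311 on chromosome 11 had the most shared members, 11 in 430 kb. Its highest, chr11:58796901-58797160, had 1.44 and 1.19. The locus of Olfr750 on chromosome 14 had 8 in 48.1 kb, 7 of them near tRNA genes. Olfr780 to Olfr827 on chromosome 10 had 6, the highest with 0.969 and 0.709. Olfr951 to Olfr981 on chromosome 9 and Olfr1413 to Olfr12 on chromosome 1 had 5 each, the highest with 1.16 and 0.840 and with 1.05 and 1.03. The widest loci without a shared member were Olfr881 to Olfr914 on chromosome 9 (659 kb, 30 genes), Olfr1191-ps1 to Olfr1226 (600 kb, 31 genes) and Olfr1275 to Olfr1295 (379 kb, 19 genes) on chromosome 2, and Olfr1444 to Olfr1463 (419 kb, 16 genes) and Olfr1484 to Olfr1505 (378 kb, 16 genes) on chromosome 19.

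Nearly all receptor promoters lacked a peak. A promoter peak in both replicates was present for 27 of 1488 receptor genes (1.81%, exact interval 1.20 to 2.63), against 64.3% of all protein-coding genes. Taken singly, replicate 1 had a peak at 50 of them and replicate 2 at 33, where 66.4% and 65.8% of all genes had one. By family these were 23 of 1135 Olfr, 2 of 209 Vmn1r, 1 of 122 Vmn2r, 1 of 15 Taar and 0 of 7 Fpr genes, and a count of 0 in 7 has an exact upper bound of 41.0%. Among receptor genes over 20 kb from any other coding gene it was 19 of 1329 (1.43%). On the shorter list 8 genes were left.

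The highest value was at Vmn1r4, with 3.91 and 4.77, but a start site of Nt5c3, a pyrimidine nucleotidase gene, lies 83 bp away, and no member peak was in its window. The other 26 genes had a member peak in both replicates. Olfr94 had 0.750 and 0.929. Olfr419 had 0.877 and 0.693, and Olfr317 had 0.665 and 0.848. All 3 were weak beside the neuron marker promoters, the lowest of which was 2.13 in replicate 1 and 2.57 in replicate 2, both at Camk2a. Means for the next genes were 0.716 for Olfr536, 0.705 for Olfr325, 0.615 for Olfr1389, 0.552 for Vmn1r199, 0.533 for Olfr525 and 0.511 for Olfr459. Of 31 receptors looked up because they are known outside the nose or well studied in it, 1 had a promoter peak in both replicates: Taar3, with 0.389 and 0.440. Taar1 and Olfr17 had one in replicate 1 alone, with 0.255 and 0.127. Olfr78, a lactate and short-chain fatty acid receptor of the carotid body and kidney, had none, nor did Olfr558, Olfr544, Olfr2, Olfr16 or Olfr1507.

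The genes that serve the receptors were looked up in the same way, where 68.9% of all protein-coding genes that are no receptor had a promoter peak in both replicates. Of 15 signal transduction genes 11 had a peak at the promoter in each replicate, a share near that background. Omp, the olfactory marker protein, had 1.39 and 1.29, Gnal, the olfactory G protein alpha subunit, 1.65 and 2.11, and Adcy3, the adenylyl cyclase of olfactory cilia, 1.36 and 2.23. Cnga2 and Cnga4, subunits of the olfactory cyclic nucleotide-gated channel, Trpc2, the vomeronasal channel, and Stoml3, a stomatin of sensory cilia, had none in either. Of 3 genes for receptor trafficking Reep1 had a peak in both (1.17 and 1.57), Rtp2 in replicate 1 alone (0.375) and Rtp1 in neither. Of 18 genes for receptor choice and cluster silencing 17 had one in both. These included Lhx2, with 3.02 and 3.77, Ldb1, with 2.25 and 2.67, and Cbx5, a heterochromatin protein, with 4.94 and 5.95. Ebf3 had one in replicate 1 alone (0.679).

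Most of the olfactory receptor enhancers that RefSeq curates lacked a peak. There are 11 of them for the mouse, 7 within 20 kb of a receptor gene, and 1 had a peak in both replicates. Of 875 other curated regions farther from receptor genes 34.7% had one. A set of 11 is small to hold against that share, and the difference was not tested. The enhancer with a peak was Fourni (chr7:140186608-140187425), whose peak, printed above, had 0.806 in replicate 1 and 0.840 in replicate 2. The other 10, among them Rhodes, Lipsi, Sfaktiria, Crete and H, had no peak, no footprint and no listed stretch in either. The LIM homeodomain letters TAATTA are in 8 of the 11 enhancers, Fourni included, but not in the replicate 1 peak of Fourni. None of the 11 holds the EBF letters, TCCC, any 2 bases and GGGA. Exact letters miss variant sites, so this does not show that EBF sites are absent. The bases of Fourni that lay in a footprint of both replicates are GGCAGCAGGTGGCA.

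Motif letters were searched on both strands as exact matches, so variant sites were not counted. The CTCF core was found in 36 members of replicate 1 (9.21%) and 27 of replicate 2 (10.6%), against 9.72% and 10.0% of other distal peaks, and in 0.644% of 22039 windows of the members' widths laid across the territory. The share in members is close to that of other distal peaks. The windows had a median of 38.5% G and C, against 49.2% and 50.8% for members, and motif shares were not adjusted for this. Members with the match had higher medians, 0.750 and 0.840 against 0.325 and 0.432 without, as other distal peaks were (0.955 and 1.14 against 0.495 and 0.595). They were shared in 72.2% and 96.3% of cases against 48.5% and 75.9%, and the match touched a footprint in 27 of 36 and 19 of 27. Site 16, with 2.00 and 2.21, and site 17, with 1.81 and 2.30, hold such a match with no tRNA gene near.

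The bHLH letters CAGATGG, which can lie within a CTCF core match as at site 1, were in 56 members of replicate 1 (14.3%) and 41 of replicate 2 (16.1%), against 13.2% and 12.3% of other distal peaks and 3.60% of windows. The SP/KLF letters GGGCGG were in 23 (5.88%) and 15 (5.88%), against 7.61% and 9.02% and 0.944%. For the LIM homeodomain letters TAATTA the counts were 16 (4.09%) and 9 (3.53%), against 4.48% and 3.45% of other distal peaks, and the windows held more, 7.65%. The EBF letters were in 2 and 1 members (0.512% and 0.392%), against 0.771% and 0.824%. No member held both LIM and EBF letters, and only 0.0543% and 0.0521% of other distal peaks did. The AP-1 letters TGANTCA were in 20 members of replicate 1 (5.12%, exact 95% interval 3.15 to 7.79) and 18 of replicate 2 (7.06%, 4.24 to 10.9), against 7.90% and 6.88% of other distal peaks and 5.49% of windows. In replicate 1 the AP-1 interval lies below the share in other distal peaks, and in replicate 2 it includes it. For the other 9 of 10 motifs searched, MEF2, NFI, ETS and RFX among them, the interval included that share in both replicates.

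**Figure D5:**
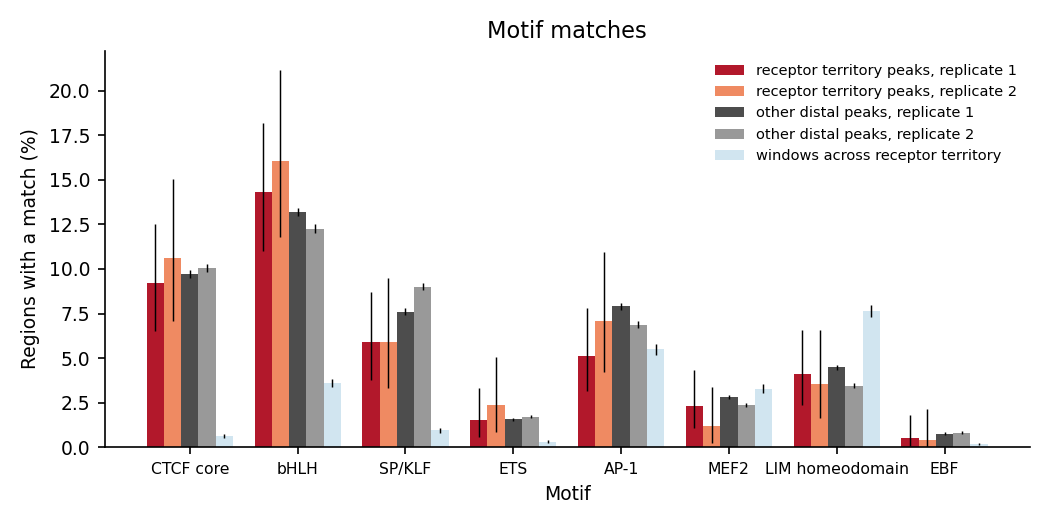
Share of regions with a motif match (y axis, %) for 8 motifs in receptor territory peaks and other distal peaks of each replicate and in windows across the territory, with exact 95% binomial intervals as error bars. The CTCF core stands at 9.21% and 10.6% in territory peaks, 9.72% and 10.0% in other distal peaks and 0.644% in windows.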

How the data were processed

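DNase-seq files of 2 replicates were used. Per the file headers and descriptions, each was made from 1 library aligned to mm10 with an aligner that, like the peak caller, is not given in the sources used here. Both replicates have a longer and a shorter peak list, whose signal column, as deposited, has no stated unit or scaling, so total read depth is unknown. The deposited p-value columns hold false discovery rates: stretches of cut rate are listed under 0.05 and every footprint carries 0.01. Receptor territory was the bodies of GENCODE M21 receptor genes with 20 kb flanks, less 1 kb around start sites of other protein-coding genes and runs of N. The longer list was the main list, and overlap meant at least 1 bp. Other distal peaks lie outside the territory and more than 1 kb from those start sites. tRNA genes, curated elements and sequence came from RefSeq's GRCm38.p6, on which no peak passed a chromosome end. The 36-base words were counted over the whole reference. There is 1 group, so no test between groups was possible, and values are counts, medians and shares with exact 95% binomial intervals, which cover counting error only. Named regions were the 10 highest shared members by mean value, the highest of each family and of the 5 loci with most shared members, the 10 highest receptor promoters and the 5 widest loci with none; 1 of the 10 highest members is counted but not described here. The members and lists were chosen with earlier results of these data known. Functions were tested on simulated intervals and sequences. Computation used Python 3.11.15 with numpy 2.4.6, pandas 2.3.3 and SciPy 1.17.1.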

Additional observations from a re-analysis of the deposited data

How the results depend on the processing

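Over 77 recomputed values, 51 stayed within the spread between replicates or, for counts, within 1.5 times. Values from a single replicate, counts aside, fall within that spread by construction, so those among the 51 say nothing on stability. With gene bodies alone in place of 20 kb flanks there were 67.5 members per replicate, at a relative density of 0.173 and a relative median value of 0.533, with 28.0% on the shorter list, 54.5% with a footprint and 2.78% with a CTCF core match. With 50 kb flanks there were 509.5 members, at 0.295 and 0.781, with 65.2% footprinted and 11.9% matched. The shorter list gave 144 members, a relative median of 0.843, 82.3% footprinted and 15.8% matched, and 8 receptor genes with promoter peaks in both. Promoter windows of 2500 bp gave 44 genes, and single replicates 33 to 50. Peaks with at least 90% of 36-base words occurring once, counted over all bases, gave a density of 0.190 and a CTCF share of 11.5%. Density of all peaks per position whose word occurs once was 0.289. Footprints lay in 63.6% of members over 2.5 kb from a start site, 63.5% outside other coding genes and 62.3% away from tRNA genes. Among peaks at or above the library median, 97.2% of members were shared and the relative median, over a set chosen by the value itself, reversed to 1.06. In every setting tried the density in receptor territory stayed below that of the rest of the genome. The cause of each change was not tested. Settings on tRNA genes, the Olfr90 to Olfr126 locus, merged entries and words occurring once were chosen after seeing the data. No paired analysis was possible because there is 1 group. Read depth is unknown, and 2 replicates limit every statement on spread.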

Other observations

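Other gene families, taken by symbol and by the same rule, were less sparse. The territory of 110 keratin and keratin-associated genes held 45.4 peaks per Mb in replicate 1 and 35.9 in replicate 2, and that of 100 cytochrome P450 genes 30.3 and 26.7. Defensins, antimicrobial peptide genes that also stand in large clusters, held 13.4 and 10.9 over 64 genes, against 8.95 and 5.83 for the receptors. A promoter peak in both replicates was found for 10.0% of keratin genes, 27.0% of P450 genes and 3.13% of defensin genes, against 1.81% of receptor genes. The differences were not tested, and these densities were not split by distance to other coding genes. Peaks at a family's own promoters were counted in its density, for the receptors as well.

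The beta-globin cluster on chromosome 7 lies among olfactory receptor genes, and RefSeq lists 16 DNase I sites there, 14 of them within 20 kb of a receptor gene. None had a peak in replicate 1. A single site, between Olfr632 and Olfr633 at chr7:103942549-103943348, had a peak in replicate 2, with a value of 0.228, and a listed stretch in both replicates. The 5' sites of the locus control region, which open in erythroid cells, had no peak in either.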
